A study of Mus musculus with 54 samples.

Results

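Notch1, Notch2 and Notch3 (Notch receptors), Dll1, Jag1 and Jag2 (Notch ligands), Hey1, Heyl and Hes1 (Notch target genes) and Hes6 (a relative of Hes1) were followed in differentiating H2K mouse myogenic progenitors. The 10 genes were found by their NCBI gene numbers among 19653 genes, and each of the 10 was listed in all 27 tables, 15 of a line against wildtype and 12 between times. RNA was sequenced from 6 lines after 0, 24 and 48 h in differentiation medium, with 54 samples in 18 groups of 3 labelled replicates. The lines were wildtype, EMD-/y (null for emerin, a protein of the inner nuclear membrane), and EMD-/y cells transduced by lentivirus with wildtype emerin (+EMD) or with emerin carrying Q133H, S54F or Δ95–99, changes that cause Emery-Dreifuss muscular dystrophy. H2K cells carry a heat-sensitive T antigen under an interferon-inducible promoter, so that they divide with interferon and differentiate without it. The switch to differentiation medium also raised the temperature and changed the serum, so ratios from 0 to 24 h cover all of these changes. The wildtype and EMD-/y cells were not transduced, whereas the transduced lines were selected in puromycin, at concentrations that differed between lines. For RNA of differentiating cells, the mutant lines were plated at a higher density, and the density of +EMD was not stated. Each genotype was 1 line, so a difference between genotypes cannot be told apart from a difference between lines. Strain, age and the species of the transduced emerin were not given in the sources used here, and a line with vector alone was not analysed here.

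Notch receptors sit at the cell surface and are bound by Delta-like or Jagged ligands on a neighbouring cell. A sheddase and then gamma-secretase cut the bound receptor, and its intracellular domain enters the nucleus, where it joins Rbpj and Mastermind-like proteins and turns on Hes and Hey genes, which encode basic helix-loop-helix repressors. In skeletal muscle the pathway is known for keeping satellite cells and myoblasts undifferentiated, and Hes6 is known for opposing Hes1 and for appearing as myoblasts differentiate.

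The deposited values were the authors' means of normalized counts, 2 groups to a table, so replicate spread could not be computed and no value below carries an SD or a test. A difference is the log2 ratio of the 2 means of a table, and it is called past 2-fold where it is at least 1 or at most -1. Counts of genes past 2-fold stand beside the share of all genes that were past it in either direction in the same table, or over the same tables where a count covers several. A level is the group's mean per 1000000 of the group's summed means, written CPM here and taken as the median over the tables that hold the group. The summed means ran from 16719491 to 21128040 normalized counts per group and table after the authors' scaling, and the depth of single libraries is unknown.

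Emd stood at 104.8, 95.05 and 54.8 CPM in wildtype cells at 0, 24 and 48 h, and its means in the other 5 lines, +EMD included, were 0.141 to 3.52 normalized counts against 987 to 1962 in wildtype. The mouse Emd transcript therefore separated the labels of wildtype and EMD-/y background, but it did not check the transduced constructs. Summed over a list of 8 genes, myogenic markers reached 1637 to 9380 CPM in the 18 groups, against 1.09 to 5.18 for 5 fibroblast, 0.909 to 2.79 for 4 endothelial, 0.519 to 6.18 for 3 blood and 0.339 to 1.30 for 3 Schwann cell markers. Of the 8 myogenic genes, Msc was nearly absent, at 0.0138 to 0.203 CPM where listed. Tcf21 of the fibroblast list and Sox10 of the Schwann cell list were listed in 0 groups and added nothing to these sums. The 5 mural cell markers summed to 58.4 to 263 CPM, but Notch3 is one of them, and of the others Abcc9 ranged from 0.296 to 94.96, Rgs5 from 0.136 to 9.42, Myh11 from 0.114 to 1.27 and Kcnj8 from 0.00782 to 0.0821. Q133H stood apart from the other lines. Its Pax7, a satellite cell transcription factor, stood at 0.179, 0.336 and 0.458 CPM at 0, 24 and 48 h, whereas the other lines ranged from 2.73 to 116. Q133H was also low in Myog, the myogenin gene, with 175 CPM at 24 h against 1990.3 in wildtype, and in the embryonic myosin gene Myh3, with 148 against 3691. Δ95–99 had 588 for Myog and 228 for Myh3 at 24 h. Myod1, the gene of the transcription factor MyoD, was less spread at 24 h, at 345 in Q133H, 612 in Δ95–99 and 931 in wildtype. The part of these differences in the Notch results was not tested.

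Promoter sequence was at hand for 7 of the 10 genes, and for the 250 bases before a transcription start (RefSeq, GRCm38.p6, the build also called mm10) the letters CAGCTG, an E-box of the type bound by MyoD and myogenin, lay before Dll1, Jag1 and Hes6. Those letters, the same on both strands, occur in 13.0% of all 32851 promoter windows of that length. Hey1, Heyl and Hes1, the Notch target genes of the set, had no sequence at hand, so none of them was searched for any letters. Neither TGGGAA, the core of the Rbpj motif, nor CACGTG, an E-box of the Hes and Hey type, lay on either strand of any window of the 7 genes, and they occur in 21.6% and 6.02% of all windows. Of the 5 genes that were past 2-fold higher at 24 h than at 0 h in wildtype cells, Dll1 and Hes6 had a window with CAGCTG, Notch1 and Notch3 had windows without these letters, and Heyl had no sequence at hand. Jag1, which also had CAGCTG, was within 2-fold over that interval in wildtype cells, at a log2 ratio of 0.45. The windows of Dll1 and Hes6 at the start of the gene are shown to give the place of the letters. A second window was listed for each, and it held CAGCTG for Hes6 but not for Dll1 (chr17:15375824-15376073). Both lie on the minus strand, Dll1 at chr17:15376933-15377182 and Hes6 at chr1:91414039-91414288, are written 5′ to 3′ in the direction of transcription, and have CAGCTG in capitals, at positions -132 to -127 from the start of Dll1 and -171 to -166 from that of Hes6.
Dll1: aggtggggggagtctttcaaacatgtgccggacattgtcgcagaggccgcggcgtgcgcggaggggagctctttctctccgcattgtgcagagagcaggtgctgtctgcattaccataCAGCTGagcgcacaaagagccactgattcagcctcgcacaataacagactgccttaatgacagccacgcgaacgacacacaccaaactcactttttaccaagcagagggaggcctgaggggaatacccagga
Hes6: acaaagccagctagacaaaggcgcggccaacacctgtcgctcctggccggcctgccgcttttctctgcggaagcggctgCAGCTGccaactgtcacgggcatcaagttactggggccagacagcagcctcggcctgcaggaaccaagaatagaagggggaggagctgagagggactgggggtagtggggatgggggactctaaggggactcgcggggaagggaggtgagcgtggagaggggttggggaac
A match of letters is a description of the window, and binding was not measured.

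Heyl, a Notch target gene expressed in satellite cells (chr4:123233556-123249870), had the widest range of the 10 genes, 159-fold between its lowest and highest group. At 0 h, Heyl stood at 13.3 CPM in wildtype, 20.0 in EMD-/y, 24.4 in +EMD, 3.11 in Q133H, 14.0 in Δ95–99 and 21.1 in S54F. At 24 h, Heyl stood at 92.7 in wildtype, 72.0 in EMD-/y, 91.8 in +EMD, 0.584 in Q133H, 23.6 in Δ95–99 and 69.01 in S54F. At 48 h, Heyl stood at 47.3 in wildtype, 39.9 in EMD-/y, 55.3 in +EMD, 1.46 in Q133H, 28.2 in Δ95–99 and 44.6 in S54F. Q133H was the lowest line at each of the 3 times, and Δ95–99 was the second lowest at 24 and 48 h. Against wildtype, the log2 ratio in Q133H was -2.00 at 0 h, -7.55 at 24 h (a mean of 9.64 against 1811 normalized counts) and -5.20 at 48 h. In Δ95–99 it was 0.03, -2.03 and -0.92. In EMD-/y, S54F and +EMD no ratio of Heyl to wildtype was past 2-fold at any of the 3 times. The Q133H mean at 24 h rests on few counts and differed between the 3 tables that hold this group, at 9.64, 12.8 and 11.2 normalized counts, a spread of 26.6% in CPM, whereas the median spread of the 10 genes over tables was 0.339%.

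Over the first 24 h of differentiation, Heyl was 7.09-fold higher in wildtype cells, 3.65-fold higher in EMD-/y, 3.33-fold higher in S54F and 3.45-fold higher in +EMD. In Δ95–99 the ratio was 1.61, within 2-fold, and in Q133H Heyl was 4.28-fold lower at 24 h than at 0 h. From 24 to 48 h, the log2 ratio was -0.78 in wildtype cells, -0.61 in EMD-/y, -0.36 in S54F, -0.49 in +EMD, 0.40 in Δ95–99 and 1.26 in Q133H. Only the ratio of Q133H was past 2-fold over that interval, from the low level given above, and it was 0.80 when 10 was added to both means.

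Hey1, the other Hey gene among the 10 (chr3:8663359-8667038), differed from Heyl in the lines where it stood apart from wildtype. At 0 h, Hey1 stood at 4.70 CPM in wildtype, 11.6 in EMD-/y, 49.5 in +EMD, 9.93 in Q133H, 19.6 in Δ95–99 and 22.8 in S54F. At 24 h, Hey1 stood at 6.28 in wildtype, 10.2 in EMD-/y, 28.4 in +EMD, 5.16 in Q133H, 17.5 in Δ95–99 and 16.8 in S54F. At 48 h, Hey1 stood at 5.05 in wildtype, 7.10 in EMD-/y, 8.69 in +EMD, 7.11 in Q133H, 14.7 in Δ95–99 and 8.08 in S54F. Wildtype had the lowest Hey1 at 0 and 48 h, and Q133H at 24 h. Hey1 was past 2-fold above wildtype in 9 of the 15 comparisons, which include all 5 lines at 0 h, where the log2 ratio was 3.39 in +EMD, 2.24 in S54F, 2.01 in Δ95–99, 1.32 in EMD-/y and 1.06 in Q133H. These 5 ratios share the wildtype samples of 0 h, and the one of Q133H was 0.98 with 10 added to both means. Of the genes listed in all of these tables, 3.31% were past 2-fold above wildtype in at least 9 of the 15 comparisons and 1.37% in all 5 lines at 0 h. The line with wildtype emerin was the farthest from wildtype cells, with 917 normalized counts against 87.2 at 0 h. At 24 h, S54F, Δ95–99 and +EMD remained past 2-fold, at 1.39, 1.34 and 2.08, and at 48 h only Δ95–99, at 1.35. Over time, Hey1 was past 2-fold in 1 of 12 comparisons, +EMD from 24 to 48 h, where it was 2.74-fold lower. S54F over that interval had a log2 ratio of -0.78, or -1.05 and past 2-fold from CPM.

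**Figure D1:**
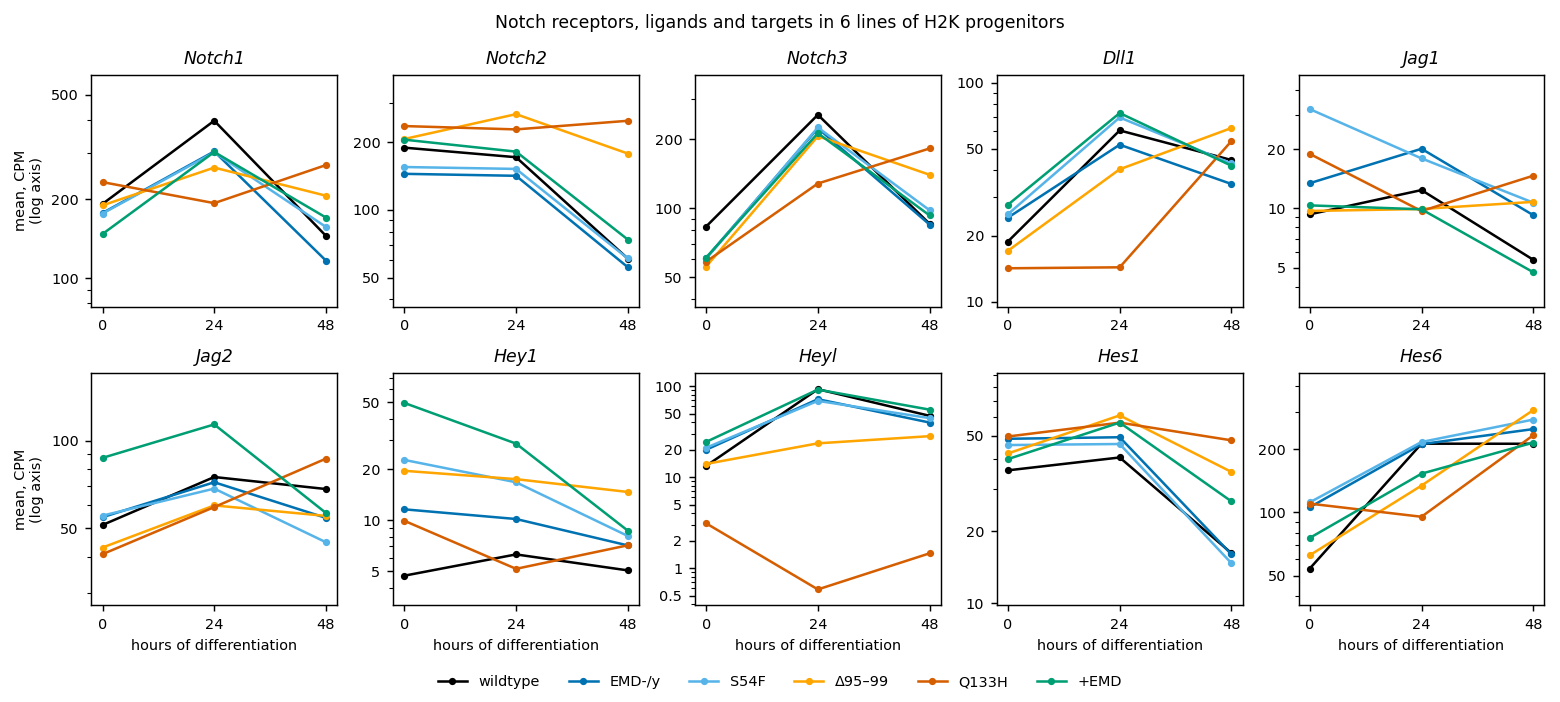
Levels of the 10 genes in the 6 lines at 0, 24 and 48 h of differentiation, as the authors' group mean in CPM on a log axis, 1 point per group and no error bars because the tables used hold means. Heyl of Q133H lies below all other lines at each time, between 0.584 and 3.11 CPM, and Hey1 of +EMD is the highest at 0 and 24 h, at 49.5 and 28.4.

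Hes1, a Notch target gene in many tissues (chr16:30065357-30067796), was closer to wildtype. At 0 h, Hes1 stood at 35.9 CPM in wildtype, 48.6 in EMD-/y, 40.0 in +EMD, 49.7 in Q133H, 42.2 in Δ95–99 and 45.8 in S54F. At 24 h, Hes1 stood at 40.6 in wildtype, 49.3 in EMD-/y, 56.8 in +EMD, 56.8 in Q133H, 60.8 in Δ95–99 and 46.2 in S54F. At 48 h, Hes1 stood at 16.2 in wildtype, 16.0 in EMD-/y, 26.6 in +EMD, 47.9 in Q133H, 35.4 in Δ95–99 and 14.7 in S54F. The levels at 48 h fell into a low range of wildtype, EMD-/y and S54F and a higher one of +EMD, Δ95–99 and Q133H. The log2 ratio to wildtype at 48 h was 1.30 in Q133H, the only one of 15 past 2-fold, 0.94 in Δ95–99 and 0.67 in +EMD. That of Δ95–99 was 1.12 when the means were scaled to CPM. From 24 to 48 h, Hes1 was lower past 2-fold in wildtype, EMD-/y and S54F, with log2 ratios of -1.13, -1.36 and -1.38, while +EMD, Δ95–99 and Q133H had -0.84, -0.64 and -0.22. Scaled to CPM, +EMD was past 2-fold over that interval as well, at -1.08.

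Hes6 (chr1:91411483-91414038) had the highest level per kilobase of gene length of the 10 genes in all 18 groups, from 39.4 CPM per kilobase in wildtype at 0 h to 225 in Δ95–99 at 48 h. At 0 h, Hes6 stood at 54.02 CPM in wildtype, 106 in EMD-/y, 75.6 in +EMD, 110.2 in Q133H, 62.5 in Δ95–99 and 112 in S54F. At 24 h, Hes6 stood at 213 in wildtype, 212 in EMD-/y, 153 in +EMD, 95.4 in Q133H, 134 in Δ95–99 and 217 in S54F. At 48 h, Hes6 stood at 213 in wildtype, 249.8 in EMD-/y, 215 in +EMD, 233 in Q133H, 308 in Δ95–99 and 277 in S54F. Wildtype was the lowest line at 0 h and nearly level with EMD-/y and S54F at 24 h. From 0 to 24 h, Hes6 was 4.03-fold higher in wildtype, 2.02-fold in EMD-/y, 2.10-fold in Δ95–99, 1.97-fold in S54F and 1.91-fold in +EMD, and in Q133H the ratio was 0.865. Several of these lay at the edge of the 2-fold limit, and scaling to CPM took EMD-/y below it (log2 ratio 0.99) and +EMD past it (1.01). Q133H and Δ95–99 passed it from 24 to 48 h, by 2.39-fold and 2.52-fold. Against wildtype, Hes6 was lower past 2-fold in Q133H at 24 h, at -1.27, and higher in S54F at 0 h, at 1.01, with 0.97 in EMD-/y and 0.99 in Q133H at 0 h just inside the limit.

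Dll1, the Delta-like ligand of the set (chr17:15367354-15376932), was highest at 24 h in wildtype, EMD-/y, S54F and +EMD and at 48 h in Δ95–99 and Q133H. At 0 h, Dll1 stood at 18.8 CPM in wildtype, 24.2 in EMD-/y, 27.7 in +EMD, 14.2 in Q133H, 17.1 in Δ95–99 and 25.1 in S54F. At 24 h, Dll1 stood at 60.6 in wildtype, 52.2 in EMD-/y, 72.8 in +EMD, 14.4 in Q133H, 40.3 in Δ95–99 and 69.5 in S54F. At 48 h, Dll1 stood at 44.4 in wildtype, 34.5 in EMD-/y, 41.8 in +EMD, 54.2 in Q133H, 62.2 in Δ95–99 and 42.8 in S54F. From 0 to 24 h, Dll1 was higher past 2-fold in wildtype, EMD-/y, S54F, Δ95–99 and +EMD, with log2 ratios of 1.72, 1.13, 1.49, 1.20 and 1.31. The ratio in Q133H was 0.00 over that interval and 1.85 from 24 to 48 h. Against wildtype, Dll1 passed 2-fold in 1 of 15 comparisons, Q133H at 24 h, at -2.19. At 48 h, Δ95–99 and Q133H had the highest levels, but their ratios to wildtype were 0.30 and 0.04.

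Jag1, a Jagged ligand (chr2:137081451-137116520), had the lowest level per kilobase of the 10 genes in 14 of 18 groups and ranged from 4.73 CPM in +EMD at 48 h to 32.1 in S54F at 0 h. Wildtype had 9.33, 12.4 and 5.48 CPM at 0, 24 and 48 h. Jag1 was above wildtype past 2-fold in S54F at 0 h, with a log2 ratio of 1.65, and in Q133H at 48 h, with 1.17. S54F at 48 h had 202.8 against 101.5 normalized counts, which was just inside the limit. No ratio of Jag1 between times was past 2-fold with the means as deposited, although scaling to CPM took wildtype, EMD-/y and +EMD past it from 24 to 48 h, at -1.17, -1.10 and -1.06.

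Jag2, the second Jagged ligand (chr12:112907803-112929812), was not past 2-fold in any of the 27 comparisons with the means as deposited. Its levels ranged from 40.8 CPM in Q133H at 0 h to 114 in +EMD at 24 h, a ratio of 2.79, the narrowest of the 10 genes. The largest ratio to wildtype was 0.77, in +EMD at 0 h, and the largest between times was -0.77, in +EMD from 24 to 48 h, which was -1.01 from CPM.

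Notch1 (chr2:26457902-26503822), the first of the receptors, had a peak at 24 h in all lines but Q133H. At 0 h, Notch1 stood at 192 CPM in wildtype, 177 in EMD-/y, 147 in +EMD, 232 in Q133H, 189 in Δ95–99 and 176 in S54F. At 24 h, Notch1 stood at 398 in wildtype, 304 in EMD-/y, 302 in +EMD, 193 in Q133H, 264 in Δ95–99 and 302 in S54F. At 48 h, Notch1 stood at 145 in wildtype, 117 in EMD-/y, 170.1 in +EMD, 269.7 in Q133H, 206 in Δ95–99 and 157 in S54F. Wildtype was the highest line at 24 h and Q133H the lowest, and at 48 h Q133H was the highest. The ratio to wildtype was past 2-fold in Q133H at 24 h only, at -1.15, and it was 0.64 at 48 h. Over time, Notch1 was 2.13-fold higher at 24 h than at 0 h in wildtype and 2.41-fold lower at 48 h than at 24 h, and it was 2.21-fold lower in EMD-/y over the second interval. The other ratios between times were within 2-fold, that of +EMD from 0 to 24 h only just, at 0.96, or 1.04 from CPM.

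Notch3 (chr17:32120820-32166896), a receptor also found in mural cells, was the only one of the 10 genes past 2-fold from 0 to 24 h in all 6 lines, where 1.91% of the genes listed in those 6 tables were higher in all. At 0 h, Notch3 stood at 83.2 CPM in wildtype, 60.5 in EMD-/y, 60.8 in +EMD, 58.4 in Q133H, 55.6 in Δ95–99 and 60.1 in S54F. At 24 h, Notch3 stood at 256 in wildtype, 224 in EMD-/y, 213 in +EMD, 128 in Q133H, 206 in Δ95–99 and 225 in S54F. At 48 h, Notch3 stood at 85.4 in wildtype, 84.8 in EMD-/y, 93.0 in +EMD, 182 in Q133H, 140.0 in Δ95–99 and 98.0 in S54F. The log2 ratio from 0 to 24 h was 1.93 in S54F, 1.91 in EMD-/y, 1.86 in Δ95–99, 1.73 in +EMD, 1.65 in wildtype and 1.12 in Q133H. From 24 to 48 h, Notch3 was lower past 2-fold in wildtype and EMD-/y, at -1.39 and -1.16, S54F and +EMD had -0.93 and -0.95, and Q133H had 0.53. Scaled to CPM, S54F and +EMD were past 2-fold as well, at -1.20 and -1.19. Against wildtype, Notch3 was past 2-fold in Q133H at 24 h, at -1.11, which was just inside the limit when scaled to CPM, and it was 0.84 at 48 h, or 1.09 and past 2-fold from CPM.

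Notch2 (chr3:98013538-98150367) had no peak at 24 h in wildtype and separated the lines at 48 h. At 0 h, Notch2 stood at 189 CPM in wildtype, 145 in EMD-/y, 205 in +EMD, 236 in Q133H, 207 in Δ95–99 and 155 in S54F. At 24 h, Notch2 stood at 172 in wildtype, 142 in EMD-/y, 182 in +EMD, 228 in Q133H, 267 in Δ95–99 and 152 in S54F. At 48 h, Notch2 stood at 60.8 in wildtype, 55.7 in EMD-/y, 73.9 in +EMD, 249 in Q133H, 178 in Δ95–99 and 60.9 in S54F. From 24 to 48 h, Notch2 was lower past 2-fold in wildtype, EMD-/y, S54F and +EMD, with log2 ratios of -1.30, -1.10, -1.05 and -1.05, and it was -0.43 in Δ95–99 and 0.15 in Q133H. At 48 h, Notch2 was 2.56-fold above wildtype in Δ95–99 and 3.42-fold in Q133H, and no other ratio of Notch2 to wildtype was past 2-fold. Δ95–99 and Q133H were also the lines with the lowest Myh3 at 48 h, at 4242 and 1017 CPM, against 13394 in wildtype, 13648 in EMD-/y, 10711 in S54F and 6321 in +EMD. The part of the differentiation state in the Notch2 level was not tested, and in bulk RNA more cells of a type cannot be told apart from more transcript per cell.

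Counted by comparison, 23 of the 150 ratios of the 10 genes to wildtype were past 2-fold, 15 higher and 8 lower, and 11 of the 23 were in Q133H. That is 15.3% of the ratios, against 17.1% for all genes over the 15 tables. At 0 h, the count was 1 of 10 genes in EMD-/y, where 8.82% of all genes listed were past 2-fold, 1 in +EMD (17.9% of all genes), 2 in Q133H (16.4%), 1 in Δ95–99 (13.1%) and 3 in S54F (12.8%). At 24 h, the count was 0 in EMD-/y (7.75% of all genes), 1 in +EMD (20.5%), 5 in Q133H (26.6%), 2 in Δ95–99 (22.6%) and 1 in S54F (12.9%). At 48 h, the count was 0 in EMD-/y (7.89% of all genes), 0 in +EMD (19.5%), 4 in Q133H (35.3%), 2 in Δ95–99 (22.7%) and 0 in S54F (11.5%). The 5 genes of Q133H at 24 h were all lower, Notch1, Notch3, Dll1, Heyl and Hes6, and the median of all 10 genes was -0.79 where the median of all genes listed was -0.03. At 48 h, Notch2, Jag1 and Hes1 were higher and Heyl was lower in Q133H. The median of the 10 was then 0.44 against 0.02 for all genes. Medians away from 0 were not particular to Q133H, and Δ95–99 had -0.45 at 24 h and 0.44 at 48 h. At 0 h, the median was 0.41 in EMD-/y, 0.35 in S54F and 0.34 in +EMD, but 0.03 in Δ95–99. With 10 genes, 14 of the 15 counts lay within 2 genes of what the share of all genes would give, Q133H at 24 h being the exception. A margin of 2 genes in 10 is wide. Where the share gives fewer than 2 genes, no count can fall below the margin, so these counts do not show that the 10 genes followed the share. Without Q133H the total was 12 of 120, or 10.0%, against 14.8% for all genes.

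**Figure D2:**
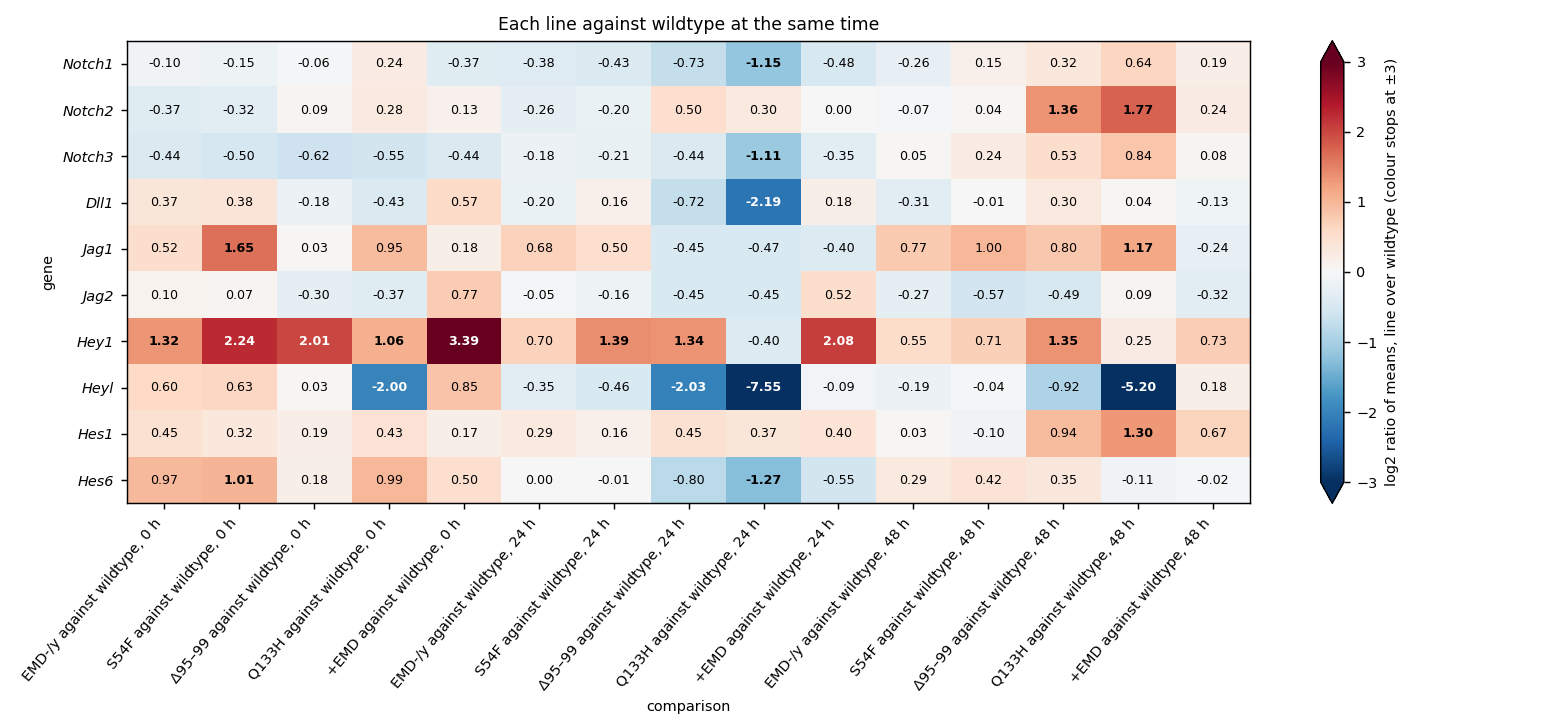
Log2 ratio of the authors' group means for each of the 10 genes (rows) in each line against wildtype at the same time (columns), with values past 2-fold in bold and colour ending at 3 in either direction. Hey1 is above wildtype in all 5 lines at 0 h, from 1.06 to 3.39, and the Q133H column at 24 h holds 5 genes past 2-fold below wildtype.

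Between times, 36 of 120 ratios (30.0%) were past 2-fold, 23 higher and 13 lower, against 17.1% of the ratios of all genes. From 0 to 24 h, the count was 5 of 10 genes in wildtype, where 23.1% of all genes listed were past 2-fold, 4 in EMD-/y (21.2% of all genes), 3 in +EMD (17.4%), 2 in Q133H (12%), 3 in Δ95–99 (14.4%) and 3 in S54F (16.9%). Every one of these was higher at 24 h except Heyl in Q133H. The 5 genes in wildtype were Notch1, Notch3, Dll1, Heyl and Hes6, which are the 5 that were past 2-fold below wildtype in Q133H at 24 h, and both comparisons share the wildtype samples of 24 h. From 24 to 48 h, the count was 4 in wildtype (19.2% of all genes), 4 in EMD-/y (17.7%), 2 in S54F (19.6%) and 2 in +EMD (19.3%), all lower, and 1 in Δ95–99 (13.6%) and 3 in Q133H (10.1%), all higher. Notch1, Notch2, Notch3 and Hes1 made up the 4 in wildtype and in EMD-/y. Hes6 was the 1 in Δ95–99, and Dll1, Heyl and Hes6 were the 3 in Q133H. Of these 12 counts, 9 lay within the same wide margin of 2 genes around the share of all genes. The exceptions were wildtype in both intervals and EMD-/y from 24 to 48 h. Q133H from 24 to 48 h, with 3 genes against 1.01 at the share of all genes, was only just inside.

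**Figure D3:**
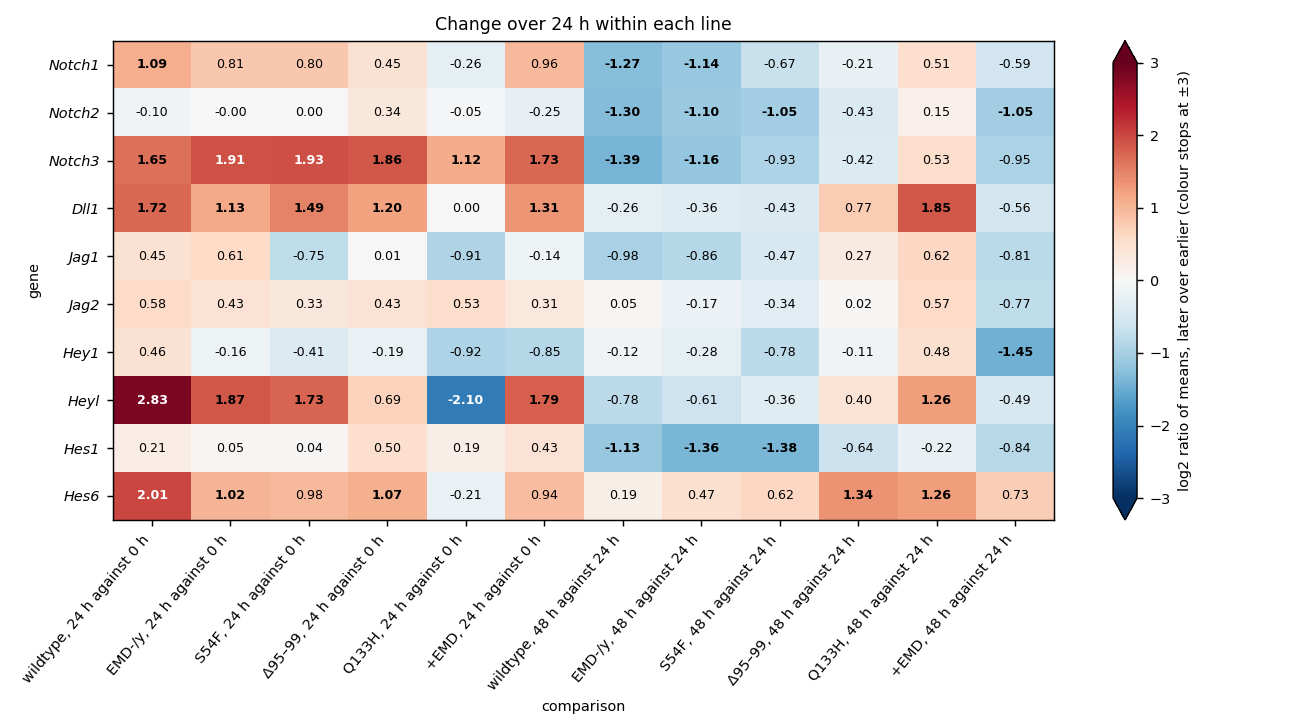
Log2 ratio of the authors' group means for each of the 10 genes (rows) between consecutive times within a line (columns), with values past 2-fold in bold and colour ending at 3 in either direction. Notch3 is past 2-fold higher from 0 to 24 h in all 6 lines, from 1.12 to 1.93, and from 24 to 48 h the values past 2-fold are below 0 in wildtype, EMD-/y, S54F and +EMD and above 0 in Δ95–99 and Q133H.

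The size of the change over 24 h was then set against that of wildtype over the same interval, as the line's log2 ratio minus the wildtype log2 ratio. This difference was past 2-fold for 26 of 100 values, 12 above and 14 below 0 (26.0%, against 14.4% for all genes compared), and for 13 of 80 without Q133H (16.2%, against 12.7%). From 0 to 24 h, the count was 0 of 10 genes in EMD-/y, where 8.17% of the genes compared were past 2-fold, 3 in +EMD (15.7%), 6 in Q133H (22.7%), 1 in Δ95–99 (18.1%) and 3 in S54F (13.4%), all below the wildtype change. The 6 in Q133H were Heyl at -4.92, Hes6 at -2.22, Dll1 at -1.71, Hey1 at -1.37, Jag1 at -1.36 and Notch1 at -1.35. Heyl differed from the wildtype change past 2-fold in S54F, Δ95–99 and +EMD too, at -1.09, -2.13 and -1.04, and was -0.96 in EMD-/y. For Hes6 the values were -1.04 in S54F, -1.07 in +EMD, -0.99 in EMD-/y and -0.94 in Δ95–99, all close to the limit, and when scaled to CPM Heyl and Hes6 of +EMD were inside it, at -0.93 and -0.96. All of these differences share the wildtype samples, and the wildtype ratio for Heyl and Hes6 was the largest of the 6 lines.

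From 24 to 48 h, the difference from the wildtype change was past 2-fold for 0 of 10 genes in EMD-/y, where 6.08% of the genes compared were past it, 1 in +EMD (14.8%), 7 in Q133H (19.5%), 5 in Δ95–99 (16.4%) and 0 in S54F (9.39%). The values of Δ95–99 and Q133H were all above the wildtype change. In Q133H they included the 3 receptors, with Notch1 at 1.77, Notch2 at 1.46 and Notch3 at 1.92, and Dll1 at 2.11, Jag1 at 1.60, Heyl at 2.04 and Hes6 at 1.07. In Δ95–99 they were Notch1 at 1.06, Dll1 at 1.03, Jag1 at 1.25, Heyl at 1.18 and Hes6 at 1.15. The 1 in +EMD was Hey1, at -1.34. Over both intervals, 7 of the 10 counts lay within the same wide margin of 2 genes around the share of all genes. The exceptions were Q133H in both and Δ95–99 in the second.

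Levels of different genes can be compared only per length. In wildtype cells at 0 h, Hes6 stood at 39.4 CPM per kilobase, Notch2 at 24.1, Hes1 at 24.1, Notch1 at 20.2, Jag2 at 11.9, Notch3 at 10.5, Dll1 at 5.47, Heyl at 2.93, Hey1 at 2.12 and Jag1 at 1.70. Notch2 and Hes1 were nearly level in that order. The 3 receptors summed to 54.8, 96.0 and 33.8 CPM per kilobase in wildtype at 0, 24 and 48 h and to 61.9, 65.5 and 83.1 in Q133H. The 3 ligands summed to 19.1, 37.3 and 29.7 in wildtype and to 17.0, 19.7 and 38.5 in Q133H. In wildtype the sums of both roles were highest at 24 h, and in Q133H both were highest at 48 h.

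Across the 18 groups, the pair with the highest Pearson's r of log2 levels (with 1 added) among the 10 genes was Notch2 and Hes1, at 0.90, followed by Notch1 and Notch3 at 0.78, Dll1 and Hes6 at 0.78 and Notch3 and Dll1 at 0.74. Heyl and Hey1 had an r of 0.24, and Hes1 and Hes6 of -0.43. The groups are 6 lines at 3 times and are not independent, so these values are descriptions. Of 12986 genes compared, the ones most like each member over the 18 groups were Mbd5 and Apol8 for Notch1 (r of 0.92 and 0.91), Myo5a and Fmr1 for Notch2 (0.98 and 0.97), Cercam and Nectin4 for Notch3 (0.97 and 0.95) and Sun1 and Iqsec1 for Dll1 (0.92 and 0.91). For Jag1 they were Rgs5 and Dynlt1b (0.81 and 0.80), for Jag2 Dsp and Arvcf (0.79 and 0.77), for Hey1 Actr3b and Sall1 (0.90 and 0.90), for Heyl Lrrn1 and Pdzrn3 (0.94 and 0.93), for Hes1 Marcksl1 and Eri2 (0.98 and 0.97) and for Hes6 Trim13 and Armcx6 (0.96 and 0.95).

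The other genes of the pathway were taken as a list of 59 in 7 roles, and all 59 were listed in at least 1 table. Against wildtype, 107 of their 847 ratios were past 2-fold (12.6%, against 17.1% for all genes over the 15 tables), 55 higher and 52 lower. Between times, 120 of 681 were (17.6%, against 17.1% for all genes over the 12 tables), 66 higher and 54 lower. The 8 genes of the nuclear complex, among them Rbpj, were past 2-fold in 9 of 120 ratios to wildtype (7.50%) and 1 of 96 between times (1.04%). The 9 corepressors were past it in 6 of 135 (4.44%) and 2 of 108 (1.85%), and the 9 sheddase and gamma-secretase genes in 8 of 135 (5.93%) and 9 of 108 (8.33%). The 8 further targets and Hes or Hey relatives were past it in 18 of 94 ratios to wildtype (19.1%), near the share of all genes, and in 33 of 77 between times (42.9%). The 14 genes of ubiquitination and trafficking were past it in 29 of 201 (14.4%) and 37 of 162 (22.8%), the 6 other receptors and ligands in 27 of 87 (31.0%) and 24 of 71 (33.8%), and the 5 glycosyltransferase genes in 10 of 75 (13.3%) and 14 of 59 (23.7%). The differences between roles were not tested. Many of these genes had few counts, and keeping only ratios with a mean of at least 10 over both groups left 87 and 97 past 2-fold in place of 107 and 120. How many ratios of the list the filter kept was not counted, so no share is given for them. Under that filter, 6.88% to 32.5% of all genes were past 2-fold in a table against wildtype and 10.6% to 22.2% between times. For Q133H, the list had 3 of 56 genes past 2-fold at 0 h (5.36%), 11 of 56 at 24 h (19.6%) and 15 of 57 at 48 h (26.3%), against 16.4%, 26.6% and 35.3% of all genes listed.

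Of this list, the genes past 2-fold in the same direction in nearly all lines are described here. Of all genes, 1.91% were past 2-fold higher from 0 to 24 h in all 6 lines, and the share was not computed for the other patterns below. Ratios of the lines to wildtype at the same time share the wildtype samples. Lfng, the Fringe enzyme that adds sugar to Notch receptors, was lower from 0 to 24 h in all 6 lines, by a log2 ratio of -2.58 to -3.65, from 19.2 to 1.94 CPM in wildtype and from 11.8 to 1.29 in Q133H. Nrarp, a Notch target that limits the pathway, was higher from 0 to 24 h in 5 of 6 lines and lower from 24 to 48 h in 5 of 6. Its level in wildtype was 1.06, 3.92 and 1.47 CPM at 0, 24 and 48 h, and in Q133H, the exception in both intervals, it was 1.84, 2.28 and 3.41. Hey2, the third Hey gene, was higher from 0 to 24 h in all 6 lines and above wildtype at 48 h in all 5 lines, by 1.12 to 4.41. At 48 h, Hey2 stood at 0.256 CPM in wildtype, 0.697 in EMD-/y, 1.15 in +EMD, 6.33 in Q133H, 1.93 in Δ95–99 and 0.557 in S54F, so the wildtype mean of 4.90 normalized counts rests on few counts. Hes2 was higher from 0 to 24 h in all 6 lines, but its means were at most 9.01 normalized counts at 24 h.

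Dtx4, an E3 ubiquitin ligase of the Deltex family, was below wildtype past 2-fold in 4 of 5 lines at 0 h and at 48 h, EMD-/y being the exception. At 0 h, Dtx4 stood at 35.5 CPM in wildtype, 30.4 in EMD-/y, 7.48 in +EMD, 10.2 in Q133H, 11.3 in Δ95–99 and 13.9 in S54F. At 24 h, fewer lines were past 2-fold below wildtype. Dtx4 then stood at 78.1 in wildtype, 72.0 in EMD-/y, 29.7 in +EMD, 16.8 in Q133H, 23.9 in Δ95–99 and 45.5 in S54F. At 48 h, Dtx4 stood at 71.7 in wildtype, 43.5 in EMD-/y, 20.4 in +EMD, 26.0 in Q133H, 26.2 in Δ95–99 and 31.0 in S54F. Thus the transduced lines, +EMD included, had less Dtx4 than the lines that were not transduced. Transduction and puromycin, and plating density for the mutant lines, cannot be told apart here. Neurl1a, an E3 ligase that acts on Notch ligands, was higher from 24 to 48 h in all 6 lines, by a log2 ratio of 1.05 to 3.29. At 24 h, Neurl1a stood at 108 CPM in wildtype, 100.2 in EMD-/y, 44.0 in +EMD, 8.80 in Q133H, 14.6 in Δ95–99 and 59.8 in S54F. Psen2, a catalytic subunit of gamma-secretase, was higher from 24 to 48 h in 5 of 6 lines. At 48 h, wildtype had the lowest Psen2, at 7.68 CPM. The other lines had 49.8 in EMD-/y, 20.0 in +EMD, 12.6 in Q133H, 14.5 in Δ95–99 and 36.5 in S54F. Dner, a non-canonical ligand, was higher in 5 of 6 lines from 24 to 48 h, and Dlk2, a Delta-like protein, was lower in 5 of 6. The exceptions were Q133H for Psen2 and Dlk2 and wildtype for Dner.

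**Figure D4:**
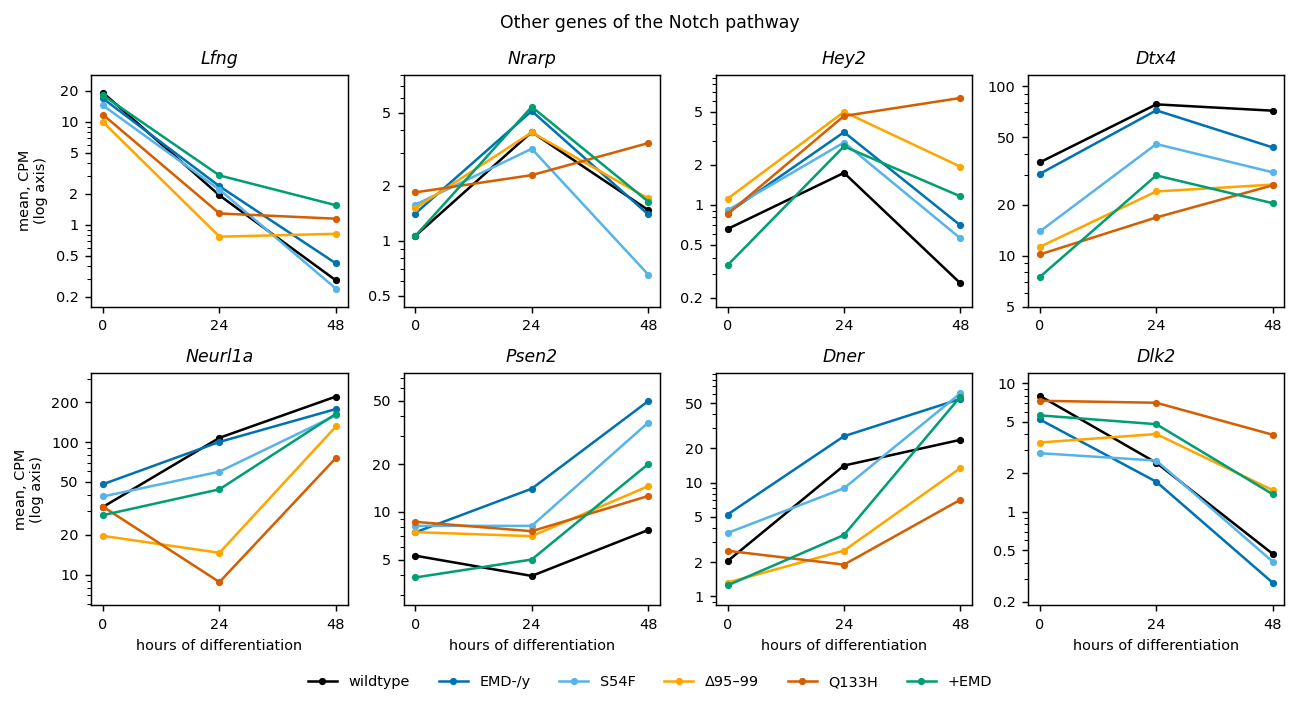
Levels of 8 further genes of the Notch pathway in the 6 lines at 0, 24 and 48 h, as the authors' group mean in CPM on a log axis, 1 point per group and no error bars because the tables used hold means. Lfng is lower at 24 h than at 0 h in each line, and Hey2 at 48 h is lowest in wildtype, at 0.256 CPM, and highest in Q133H, at 6.33.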

How the data were processed

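RNA was isolated with a column kit, poly-A RNA was sequenced by the provider, and the authors had reads filtered with SOAPnuke, mapped to mm10 with HISAT2 and compared with DESeq2. Versions, library sizes and strand settings were not given in the sources used here. The protocol gives 3 technical replicates for each of 2 biological replicates, and the deposited tables do not say which labelled replicate is which. Whether the 3 labelled replicates of a group were separate cultures is therefore unknown. Each deposited signal value was the authors' mean of normalized counts for 1 group, with 2 groups in each of 27 tables, and 0 columns held single samples. Gene length, per the file headers, was a further column and was used for levels per kilobase. The deposited log2 fold changes, p-values, adjusted p-values and up or down calls are the authors' own comparisons and were not used.

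From the means, log2 ratios were computed within each table (Python 3.11.15, pandas 2.3.3) with no pseudocount and no filter, and called at 2-fold. No test, SD or interval was possible. Genes were matched by NCBI number to RefSeq symbols (GRCm38.p6), and 91.0% to 91.4% of the genes of a table matched. Tables held 17215 to 17876 genes, and of the 10 genes 9 had means of at least 10 in every table. The ratio, the call and the likeness measure were tested on simulated data. Besides the 10 genes, the text names the 2 genes most like each over the 18 groups, pathway genes past 2-fold in the same direction in at least 4 of 5 lines at a time or 5 of 6 lines in an interval, Emd, Myog, Myod1, Pax7 and Myh3, plus marker genes. The genes, lists and rules were chosen with earlier results of these data known. Alternatives were another scaling, centring, pseudocounts, fold limits, a filter on low means and other tables for the same groups, and leaving out Q133H was added after the data were seen.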

Additional observations from a re-analysis of the deposited data

How the results depend on the processing

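No called value of the 10 genes changed sign under the alternatives run, which covered 370 values each, or 270 from other tables (the differences from the wildtype change were not recomputed there) and 300 without Q133H. Scaling to CPM shifted all genes of a table by up to 0.27 on the log2 scale, moved 19 values across the 2-fold limit, 15 past it and 4 inside it, and changed the sign of 12 small ones. The members' counts against wildtype, between times and against the wildtype change stayed within 1.5 times of 23, 36 and 26 under scaling, centring, pseudocounts of 1 and 10 and the filter on low means. With a 1.5-fold limit they were 46, 64 and 43, and with a 3-fold limit 11, 13 and 9. The pathway list had 107 and 120 values past 2-fold against wildtype and between times, 229 and 202 past 1.5-fold and 48 and 59 past 3-fold, and a pseudocount of 10 left 70 against wildtype. Without Q133H, chosen after seeing the data, the members' count against wildtype was 12 and that against the wildtype change 13. From other tables for the same groups, the members' counts were 27 and 46. The share of all genes was not computed for the other fold limits, scaling, centring, pseudocounts or tables. Those counts show only how the totals moved and are not set against all genes.

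No paired analysis was possible because the tables hold group means only, and leaving out a replicate was not run for the same reason. The spread between replicates is unknown, so no difference could be weighed against it. The means of low genes differed between tables by more than a constant factor and no mean was 0, the lowest being 0.129 normalized counts, so large ratios of low genes such as Heyl in Q133H are uncertain in size, and the cause was not tested.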
